A study of Mus musculus with 6 samples.

Results

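The integrin and laminin genes of cultured mouse retinal pigment epithelium (RPE) and choroid cells were described here by cell type, by fibroblast sub-cluster and by Dram2 genotype. Members were taken by gene symbol alone: every gene named Itga or Itgb followed by a number or by the single letter e, l, m, v or x, and every gene named Lama, Lamb or Lamc followed by a number. These were 35 of the 52636 genes counted, namely 24 integrin chains (16 α and 8 β) and 11 laminin chains (5 α, 3 β and 3 γ). The rule itself uses no measured value. The integrin chains Itga2b, Itgad and Itgb2l fell outside the symbols.

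Laminins are trimers of an α, a β and a γ chain that polymerise into basement membranes, the sheets on which epithelial and endothelial cells rest. Bruch's membrane, between RPE and choroid, contains the basement membranes of both. Integrins are α/β pairs in the cell membrane that bind laminins, collagens, fibronectin or other cells, and connect them through talin and kindlin to actin. Each cell type carries its own set of pairs, so that the chains present limit the ligands a cell can hold.

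RPE and choroid were taken from 3 Dram2 wt/wt and 3 Dram2 ko/ko samples, all male C57BL/6J aged 12 to 16 months. Dram2, which encodes a lysosomal membrane protein, had been disrupted in the whole animal by CRISPR/Cas9 deletion of exon 4. The cells of both genotypes were dissociated with papain and grown for 7 days before droplet 3′ sequencing, so every value is from cultured cells. The labels place ko/ko sample 3 alone in batch 2, and nothing states whether the samples of a genotype came from separate cultures, so a p-value measures only the spread between these samples.

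The files held 25428 cells, 2140 to 6648 per sample, and between 96808998 and 122746184 unique molecular identifiers (UMIs, each standing for 1 captured mRNA) per sample. The median UMI count per cell ran from 16450 in ko/ko sample 2 to 47370 in ko/ko sample 1. Levels are given as CPM, the UMIs of a gene in the summed cells of a type in a sample, scaled to a total of 1000000 UMIs, and sums of fewer than 10 cells were left out. They were compared for 1 gene between cell types, not between genes. The Dram2 level was 33.4, 39.6 and 38.1 CPM in wt/wt and 30.7, 28.3 and 30.1 CPM in ko/ko samples, with a log2 fold change of -0.30 (SE 0.09, limma adjusted p = 0.301). Tags from the 3′ end of the mRNA lie outside the deleted exon, so this level does not check the genotype labels.

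The 8 deposited cell types were held against marker lists. The cells labelled Endothelial (288), Myeloid (84) and RPE (1492) had the highest summed level of their own list, at 6279 to 10730, 7349 to 16470 and 295 to 1104 CPM. In the cells labelled RPE, Krt18 gave most of that level (231 to 976 CPM), and Rpe65, the visual cycle isomerase, was between 0.174 and 1.76 CPM. The 308 cells labelled Pericyte went with their name only in part. Of 6 pericyte markers, Higd1b, Kcnj8 and Ndufa4l2 had no UMI there (which allows up to 0.562 CPM each over the 6 samples, as 3 counts). The list still summed to 173 to 242 CPM, most of it from Cspg4, and to at most 142 CPM in any sample of the other types (Myeloid). All 6 Schwann cell markers were present and summed to 811 to 2200 CPM, against at most 10.4 CPM in any sample of the other types. The fibroblast list also summed to 4576 to 6875 CPM in them. They are called cells labelled Pericyte below. The other 4 types are fibroblasts by label: Fibroblast (12651 cells), Fibroblast proliferating (6465), Fibroblast 2 (3019) and Fibroblast-like (1121). The fibroblast list summed to 4227 to 5365, 5186 to 5710, 3241 to 4889 and 2255 to 2599 CPM in these. Its highest sample was thus in the cells labelled Pericyte. The proliferation list was 869 to 995.5 CPM in Fibroblast proliferating and 291 to 924 CPM in the cells labelled Pericyte, which overlapped.

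Of the 35 members, 28 reached a mean of 5 CPM in at least 1 cell type. Itga10, Itga11, Itgae, Itgb6, Lama1, Lama3 and Lamb3 stayed below it in all 8 cell types. Among the 28, 9 had their highest mean in the cells labelled Pericyte, 6 in Endothelial, 5 in Myeloid, 3 in Fibroblast, 2 in RPE, 2 in Fibroblast proliferating and 1 in Fibroblast 2, and none in Fibroblast-like. A member was said to stand apart in a type when every sample of that type lay above every sample of all other types. This held for 8 of the 28 (28.6%): Itga3 in RPE, Itgb4, Itgb8 and Lama2 in the cells labelled Pericyte, Itgam, Itgb2 and Itgal in Myeloid, and Lamc3 in Fibroblast 2. Of all 13054 genes that reached 5 CPM in some type, 15.3% did so, among them 200 in RPE, 406 in the cells labelled Pericyte, 349 in Myeloid and 314 in Fibroblast 2. Cell types had been named from clusters of the same genes, so these differences are a description and no test was made of them.

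**Figure D1:**
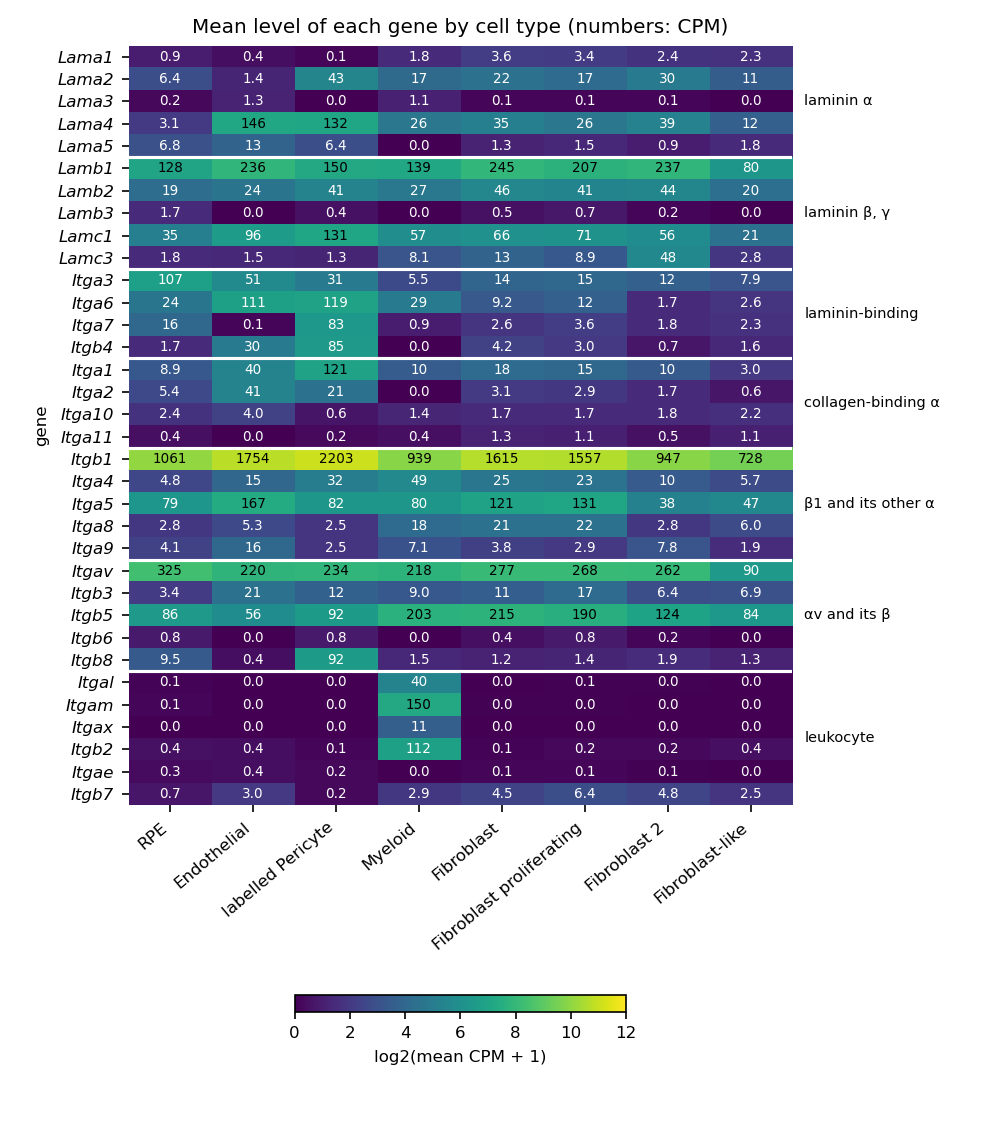
Heat map of 34 of the integrin and laminin genes (rows, grouped by role) in the 8 cell types (columns). Colour is log2(mean CPM + 1) over samples, and the printed numbers are mean CPM (n = 6 samples, 4 for Myeloid). Itgam, Itgb2, Itgal and Itgax are above 5 CPM in Myeloid alone, Lama4 is above 100 CPM in Endothelial and in the cells labelled Pericyte, and Itgb1 is at 728 CPM or more in every type.

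Among laminin chains, the β1 and γ1 chains were found in every type, whereas the α chains Lama2 and Lama4 were high in few of them. The α chains carry the main integrin-binding domains of a laminin. Lamb1 ran from a mean of 80.4 ± 26.5 CPM in Fibroblast-like to 245 ± 24.4 CPM in Fibroblast (SD, n = 6), and the samples of Fibroblast, Fibroblast 2 (237 ± 21.1) and Endothelial (236 ± 16.0) overlapped. Fibroblast-like cells were of low depth (median 4306 to 5219 UMIs per cell by sample), and mitochondrial genes took 6.12% to 16.8% of their UMIs against at most 3.70% in the other types. The part of this in their low member levels was not tested. Lamb2 lay between 18.6 ± 7.28 CPM in RPE and 46.3 ± 6.54 CPM in Fibroblast. Lamc1 was highest in the cells labelled Pericyte, at 131 ± 22.6 CPM, and next in Endothelial, at 96.2 ± 28.2 CPM, and their samples overlapped.

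Lama4, the α chain of endothelial basement membranes, was high in 2 types. In Endothelial its lowest sample was 125 CPM, its median 147 and its highest 170.5 CPM, and in the cells labelled Pericyte these were 85.6, 134 and 161 CPM. These types overlapped, and both lay above the remaining 6, whose means ran from 3.09 ± 2.17 CPM in RPE to 39.2 ± 6.70 CPM in Fibroblast 2. Lama2, the α chain of muscle and Schwann cell basement membranes, was 34.3, 42.3 and 56.6 CPM (lowest, median, highest) in the cells labelled Pericyte. The nearest type, Fibroblast 2, reached 34.2 CPM, so the samples were separate by a narrow margin, and Lama2 no longer stood apart under TMM scaling, without the cells of most UMIs or when each cell was weighted the same.

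The remaining α chains were low. Lama5, found in most mature epithelial and endothelial basement membranes, had its highest mean in Endothelial (13 ± 4.14 CPM), with RPE next at 6.81 ± 9.06 CPM. In the 8 cell types the means of Lama1 did not exceed 3.60 CPM, nor those of Lama3 1.30 CPM. The β chain gene Lamb3 was low as well, with no mean above 1.73 CPM in a cell type.

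Lamc3, which encodes the γ3 chain, stood apart in Fibroblast 2. Its level there was 54.9, 34.6 and 48.6 CPM in wt/wt and 46.1, 54.3 and 48.9 CPM in ko/ko samples, a mean of 47.9 ± 7.38 CPM. Fibroblast followed at 12.98 ± 3.79 CPM, with a highest sample of 17.3 CPM, so that the means differed 3.69-fold and the samples did not overlap. After thinning every cell to 4000 UMIs, 16.6% of Fibroblast 2 cells and 4.57% of Fibroblast cells had a Lamc3 UMI, against 0.960% of RPE cells. The part of free RNA was not tested in this or any other share of cells given here. All these shares are pooled over the cells of the samples, so samples with more cells weigh more. Spp1, which encodes the integrin ligand osteopontin, was also highest in Fibroblast 2 (15390 ± 3484 CPM, n = 6).

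The integrin chains that bind laminin were spread over RPE, Endothelial and the cells labelled Pericyte. Itga3, which pairs with β1 and anchors epithelia to laminin, was 98.4, 137 and 145 CPM in RPE of wt/wt and 122, 69.2 and 69.2 CPM in RPE of ko/ko samples. The RPE mean of 107 ± 33.1 CPM was 2.07-fold that of Endothelial, which followed at 51.5 ± 8.80 CPM. The highest sample outside RPE was 63.6 CPM, in the cells labelled Pericyte of ko/ko sample 1, so the separation was narrow and it was lost when each cell was weighted the same. At 4000 UMIs per cell, 29.2% of RPE cells and 19.0% of Endothelial cells had an Itga3 UMI, against 3.70% of Myeloid cells. Of the 1492 RPE cells before thinning, 539 were of wt/wt sample 2 and 575 of ko/ko sample 3.

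Itga6 and Itgb4, the pair that joins basal cells to laminin in hemidesmosomes, were both highest in the cells labelled Pericyte. Itgb4 was 94.6, 65.7 and 91.4 CPM in their wt/wt and 99.9, 48.1 and 109 CPM in their ko/ko samples. Endothelial ran from 15.0 to 40.6 CPM, below every one of them, with means that differed 2.85-fold, but with each cell weighted the same Itgb4 did not stand apart. Itga6 overlapped between these types, at 104 to 144 CPM in the cells labelled Pericyte and 80.5 to 138 CPM in Endothelial, and was 24.2 ± 4.70 CPM in RPE and 1.68 ± 0.612 CPM in Fibroblast 2.

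Itga7, a laminin receptor of muscle and Schwann cells, was 88.0, 103 and 78.3 CPM in wt/wt and 84.0, 35.6 and 112 CPM in ko/ko samples of the cells labelled Pericyte. RPE was next, at 15.6 ± 13.01 CPM, and its highest sample (36.6 CPM, ko/ko 3) overlapped the lowest of them (ko/ko 2), although the means differed 5.35-fold. Itga7 stood apart without ko/ko sample 2, without ko/ko sample 3 or without the cells of most UMIs. Dag1 (dystroglycan, a laminin receptor that is no integrin) was 424 ± 93.0 CPM in these cells and at most 78.6 ± 9.62 CPM on average in the other types. Agrn (agrin, a laminin-binding proteoglycan) was 185 ± 31.3 CPM there and 11.3 ± 6.26 CPM in Endothelial. The Schwann cell list given above was high in the same cells, and its part in the levels of Itga6, Itga7, Itgb4, Itgb8, Lama2 and Lama4 was not tested.

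Itgb8, whose αvβ8 pair releases active TGF-β, was 77.0, 66.8 and 102 CPM in wt/wt and 195, 38.9 and 74.3 CPM in ko/ko samples of the cells labelled Pericyte. RPE was next with a mean of 9.45 ± 3.73 CPM and a highest sample of 12.9 CPM, a 9.76-fold difference of means with no overlap. A UMI of Itgb8 was seen in 20.5% of the cells labelled Pericyte and in 2.33% of RPE and 0.596% of Fibroblast cells at 4000 UMIs. Of the 308 cells labelled Pericyte before thinning, 124 were of ko/ko sample 2.

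**Figure D2:**
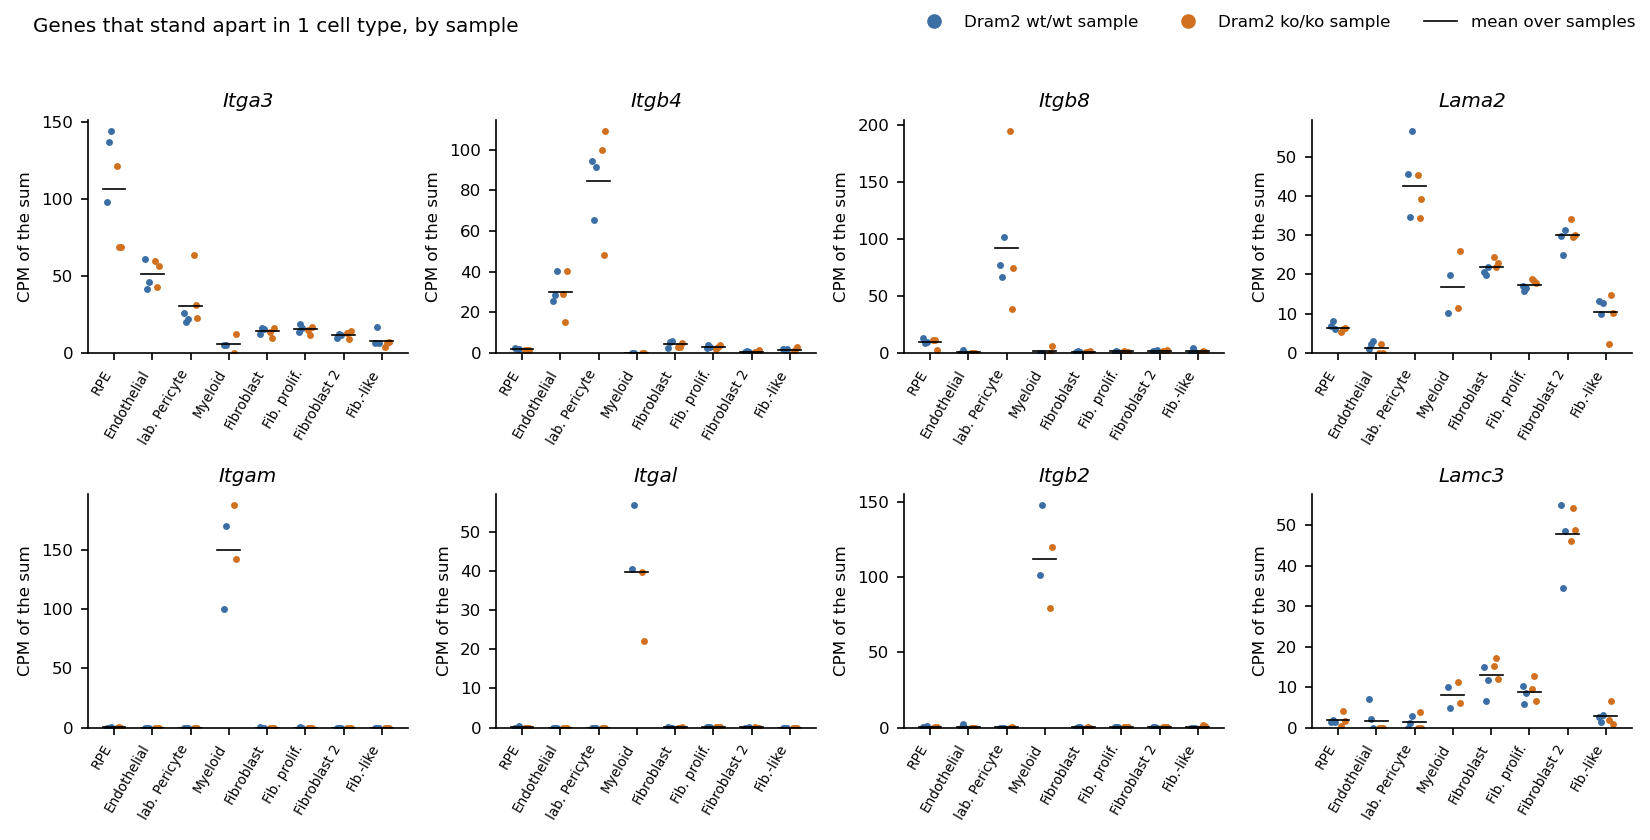
CPM of 8 genes in each sample (points: 3 Dram2 wt/wt and 3 Dram2 ko/ko samples, 2 and 2 for Myeloid) of the 8 cell types, those labelled Pericyte shown as lab. Pericyte (vertical axes from 0, lines at the mean). Each gene has 1 type in which its samples lie above all others: RPE for Itga3, the cells labelled Pericyte for Itgb4, Itgb8 and Lama2, Myeloid for Itgam, Itgb2 and Itgal, and Fibroblast 2 for Lamc3.

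Of the 4 collagen-binding α chains, Itga1 and Itga2 had a mean above 5 CPM in a cell type. Their genes are neighbours on the minus strand of chromosome 13 (GRCm38, 114833081 to 114932100 for Itga2 and 114953096 to 115101964 for Itga1). Itga2 was highest in Endothelial, at 32.8, 40.3 and 49.3 CPM (lowest, median, highest), and the cells labelled Pericyte reached 37.2 CPM. Itga1 in the cells labelled Pericyte was 123, 107 and 82.7 CPM in wt/wt but 22.7, 98.2 and 291 CPM in ko/ko samples, so that the ko/ko samples lay below, within and above the wt/wt range. Of these samples ko/ko 3 alone is of batch 2. Endothelial Itga1 reached 51.8 CPM.

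Itgb1, the common partner of most α chains here, had a mean of 728 CPM or more in every type. It was highest in the cells labelled Pericyte (1703 to 2471 CPM, median 2312) and in Endothelial (1754 ± 189 CPM), which overlapped. Itga5, the fibronectin receptor chain, had its highest mean in Endothelial (167 ± 87.9 CPM), but its range of 112 to 341 CPM contained most samples of Fibroblast proliferating (131 ± 19.1) and Fibroblast (121 ± 15.6). Fibroblast 2 was lower, with samples of 27.0 to 43.7 CPM. Fn1, the fibronectin gene, was likewise highest in Endothelial (2094 ± 516 CPM) and lower in Fibroblast 2 (96.4 ± 33.2 CPM) than in Fibroblast (738 ± 124 CPM).

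Itga8, whose pair with β1 binds nephronectin, split the fibroblast types. It was 15.2 to 24.2 CPM in Fibroblast and 16.4 to 26.0 CPM in Fibroblast proliferating, which overlapped, and 1.27 to 4.24 CPM in Fibroblast 2, below both. Npnt, the nephronectin gene, was 118 ± 12.5 CPM in Fibroblast and 48.7 ± 7.79 CPM in Fibroblast 2. Itga8 was also 17.6 ± 5.50 CPM in Myeloid (n = 4), where the fibroblast list summed to 1676 to 4494 CPM, and the part of fibroblast RNA in that value was not tested. Itga4, which binds Vcam1, was 32.1 to 68.0 CPM in Myeloid and overlapped the cells labelled Pericyte (11.4 to 55.7 CPM).

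The αv chain and its β partners bind RGD sites in vitronectin, fibronectin and osteopontin. Itgav had its highest mean in RPE (325 ± 64.4 CPM, 209 to 388), overlapping the other types apart from Fibroblast-like (89.8 ± 20.7 CPM). Itgb5, whose αvβ5 pair serves the uptake of photoreceptor outer segments by RPE in the eye, was not highest in these cultured RPE cells. It was 69.7 to 103 CPM there, below every sample of Fibroblast (179 to 236 CPM), Fibroblast proliferating (164 to 210 CPM) and Myeloid (152 to 250 CPM). Itgb3 was 21.2 ± 5.98 CPM in Endothelial and 17.1 ± 4.94 CPM in Fibroblast proliferating, and Itgb6, an epithelial chain, had no mean above 0.834 CPM in a cell type.

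Within RPE, 2 libraries stood apart in many members. RPE cells were 11.7% of wt/wt sample 2 and 14.8% of ko/ko sample 3, against 1.46% to 3.52% of the other 4. Itga5 was 132 and 184 CPM in RPE of these libraries and 33.0 to 50 CPM in the others. Lama5 was 16.7 and 20.2 CPM against 0.464 to 1.52 CPM, and Itga7 26.7 and 36.6 CPM against 4.18 to 10.9 CPM.

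Itgb1, Itgb5, Lamb2 and Lamc1 were higher in these 2 libraries too, and Itgav and Itgb8 were lower, so that of 16 members with a mean of 5 CPM in RPE 8 were above and 2 below the range of the other 4 libraries. Over the 10673 genes at that level, 29.6% were above and 15.1% below. The RPE list summed to 504 and 295 CPM in them against 868 to 1104 CPM in the others, and the proliferation list to 388 and 559 CPM against 85.4 to 172 CPM. The fibroblast list summed to 1166 CPM in wt/wt sample 2 and 520 CPM in ko/ko sample 3, against 344 to 662 CPM in the others. The libraries are 1 of each genotype, and the part of these marker differences in the member levels was not tested.

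The leukocyte chains Itgam, Itgb2, Itgal and Itgax had a mean above 5 CPM in Myeloid and reached at most 2.20 CPM in any sample of the other types. Integrin αMβ2 (Itgam, Itgb2) is the complement receptor of macrophages and neutrophils, Itgal pairs with the same β2 chain to bind Icam1, and Itgax marks dendritic cells and some macrophages. Itgam, on the plus strand of chromosome 7 (GRCm38, 128062640 to 128118491), is followed by Itgax (128129547 to 128150657) with 11055 bases between them. Their RefSeq promoter windows (GRCm38, plus strand, from 250 bases before to 50 after the annotated start) are shown because both genes had their highest level in Myeloid while these windows differ in the motif searched. Capitals mark GAGGAA or its reverse TTCCTC, the core letters bound by the myeloid factor PU.1.
Itgam, chr7:128062390-128062689: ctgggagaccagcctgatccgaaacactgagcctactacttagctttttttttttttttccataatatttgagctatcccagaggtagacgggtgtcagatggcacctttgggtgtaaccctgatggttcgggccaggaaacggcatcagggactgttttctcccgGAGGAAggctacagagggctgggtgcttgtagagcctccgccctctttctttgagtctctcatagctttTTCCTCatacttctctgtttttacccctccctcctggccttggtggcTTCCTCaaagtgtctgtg
Itgax, chr7:128129300-128129599: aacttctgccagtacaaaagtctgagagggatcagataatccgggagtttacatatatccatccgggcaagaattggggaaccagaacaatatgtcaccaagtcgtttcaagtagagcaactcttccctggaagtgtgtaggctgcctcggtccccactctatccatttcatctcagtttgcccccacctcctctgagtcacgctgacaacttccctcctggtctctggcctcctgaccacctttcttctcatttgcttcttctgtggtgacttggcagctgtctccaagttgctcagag
The Itgam window held 3 matches and the Itgax window 0. GAGGAA on either strand was in 28.3% of 32851 windows of this length and in 13 of the 25 windows found for 22 members. The match is of letters only.

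In Myeloid, sums of 10 or more cells came from 4 samples. Itgam was 99.8 and 170 CPM in wt/wt samples 2 and 3 and 187 and 142 CPM in ko/ko samples 2 and 3, whereas its highest sample in any other type was 0.464 CPM. Part of the 3′ end of Itgam is also found in another annotated gene (31.2% of the words of 31 bases in the last 400 bases), so its count is uncertain. Itgb2 was 102 and 148 CPM in wt/wt and 79.4 and 120 CPM in ko/ko, and at most 2.20 CPM elsewhere. Itgal was 40.6 and 56.7 CPM in wt/wt and 39.7 and 22.0 CPM in ko/ko, and at most 0.435 CPM elsewhere. Every Myeloid sample of these 3 genes lay above every sample of the other types.

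Itgax was 16.9 and 14.8 CPM in wt/wt, 14.0 CPM in ko/ko sample 3 and had no UMI in ko/ko sample 2, whose 11 cells allow up to 17 CPM (3 counts, counting error only). Other types reached 0.033 CPM. At 4000 UMIs per cell, Itgam was seen in 44.4%, Itgb2 in 42.0%, Itgal in 16.0% and Itgax in 4.94% of 81 Myeloid cells. The share elsewhere was at most 0.358% (Itgb2, 1 of 279 Endothelial cells). The median depth before thinning was 17635 UMIs in Myeloid and 9472 in Endothelial.

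Fermt3, the kindlin of blood cells, was also high in Myeloid (61.4 ± 20.1 CPM, n = 4) and 0.795 CPM or less on average in Endothelial, RPE and the cells labelled Pericyte. The other leukocyte chains were low. Itgae, which pairs with β7 on intraepithelial T cells, had no mean above 0.367 CPM in a cell type, and the T cell list did not exceed 1.69 CPM in Myeloid. Itgb7 was highest in Fibroblast proliferating, at 6.43 ± 1.16 CPM.

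The 4 fibroblast types had been divided further into 9 sub-clusters, with 93 to 9965 cells each. Sums of 10 or more cells came from 4 samples in sub-cluster 8 and from 3 in sub-cluster 9. Of 25 members that reached 5 CPM in a sub-cluster, 13 (52%) stood apart in 1 of them, against 16.9% of all 12676 genes at that level. They fell into 3 sub-clusters: 6 in sub-cluster 6 (477 cells), 5 in sub-cluster 7 (214 cells) and 2 in sub-cluster 4 (1558 cells). Of all genes, 569, 128 and 386 stood apart in these sub-clusters. With each cell weighted the same, 6 of 25 members (24%) stood apart against 15% of all genes. Without sub-clusters 5, 6 and 8, it was 11 of 23 members (47.8%) against 20.1% of all genes.

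In sub-cluster 6, Itgb1 was 4596, 3589 and 3892 CPM in wt/wt and 2870, 2915 and 3612 CPM in ko/ko samples, 1.84-fold above sub-cluster 7 by mean. Lamb1 was 779, 570 and 732 CPM in wt/wt and 725, 457 and 800 CPM in ko/ko samples, a 2.68-fold difference from sub-cluster 7. Itga5 (414 ± 80.2 CPM), Itgav (504 ± 69.2), Lama2 (70.8 ± 18.1) and Lamb2 (157 ± 32.3) stood apart there as well. With each cell weighted the same Itgb1, Itga5, Itgav and Lamb2 did not stand apart, nor did Lamb2 under TMM scaling, nor Lama2 once cells with a mitochondrial share over 20% or fewer than 500 genes were left out. Lama1 and Itga10, which were low in the cell types, had their highest means there, at 17.9 and 8.59 CPM, but overlapped other sub-clusters. RNA quality moved with these levels. The cells of sub-cluster 6 had a median mitochondrial share of 17.1% to 21.5% per sample, ribosomal protein genes at 0.741% to 0.995% of UMIs against 2.28% to 5.38% in sub-clusters 1 to 5, 7 and 9, and the nuclear RNA Malat1 at 51270 CPM or more against at most 28050 CPM in those. The part of RNA quality in the member levels was not tested.

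Sub-cluster 7 carried another set. Its Itga1 level was 114, 147 and 187 CPM in wt/wt and 199, 115 and 163 CPM in ko/ko samples, 5.17-fold above sub-cluster 6 by mean. Itga4 was 99.6, 128 and 104 CPM in wt/wt and 98.9, 80.6 and 109 CPM in ko/ko, a 2.44-fold difference, and Itgb5 was 448 to 634 CPM, a 1.39-fold difference. Itga7 (19.1 to 42.7 CPM) and Lama5 (13.3 to 25.9 CPM) were higher than in every other sub-cluster too, by 3.45-fold and 3.03-fold over sub-cluster 6. The Lama5 margin was narrow, with a sample of sub-cluster 6 at 12.4 CPM, and was lost with each cell weighted the same, and that of Itgb5 was lost under the same cell filter. Lamc3 had its highest mean there, 113 ± 36.7 CPM, but overlapped sub-cluster 6.

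The pericyte list summed to 253 to 555 CPM in sub-cluster 7, with 98.1 CPM of Ndufa4l2, 142 CPM of Cspg4, 108 CPM of Rgs5 and 15.2 CPM of Kcnj8 on average. The fibroblast list summed to 11690 to 21940 CPM in sub-cluster 7, against at most 7411 CPM in any sample of the other sub-clusters. In the cells labelled Pericyte, Cspg4 was 199 CPM and Rgs5 7.79 CPM on average, and Ndufa4l2 and Kcnj8 had no UMI. Sub-cluster 4 also had a pericyte list sum of 320 to 455 CPM, nearly all from Rgs5, and in it Itgb4 was 13.8 to 23.9 CPM and Itga2 9.08 to 22.5 CPM, above all other sub-clusters. The nearest single samples were of sub-cluster 8, at 13.01 CPM of Itgb4 and 9.0 CPM of Itga2. Each of these values was 1 UMI, in sums of 76856 and 111115 UMIs, and the median mitochondrial share of that sub-cluster's cells was 90.26% to 91.15% by sample. The next highest means were 5.64 ± 4.33 CPM of Itgb4 in sub-cluster 6 (SD, n = 6) and 2.75 ± 0.565 CPM of Itga2 in sub-cluster 2 (SD, n = 6). Neither stood apart under TMM scaling or with each cell weighted the same, nor did Itga2 without the cells of most UMIs.

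**Figure D3:**
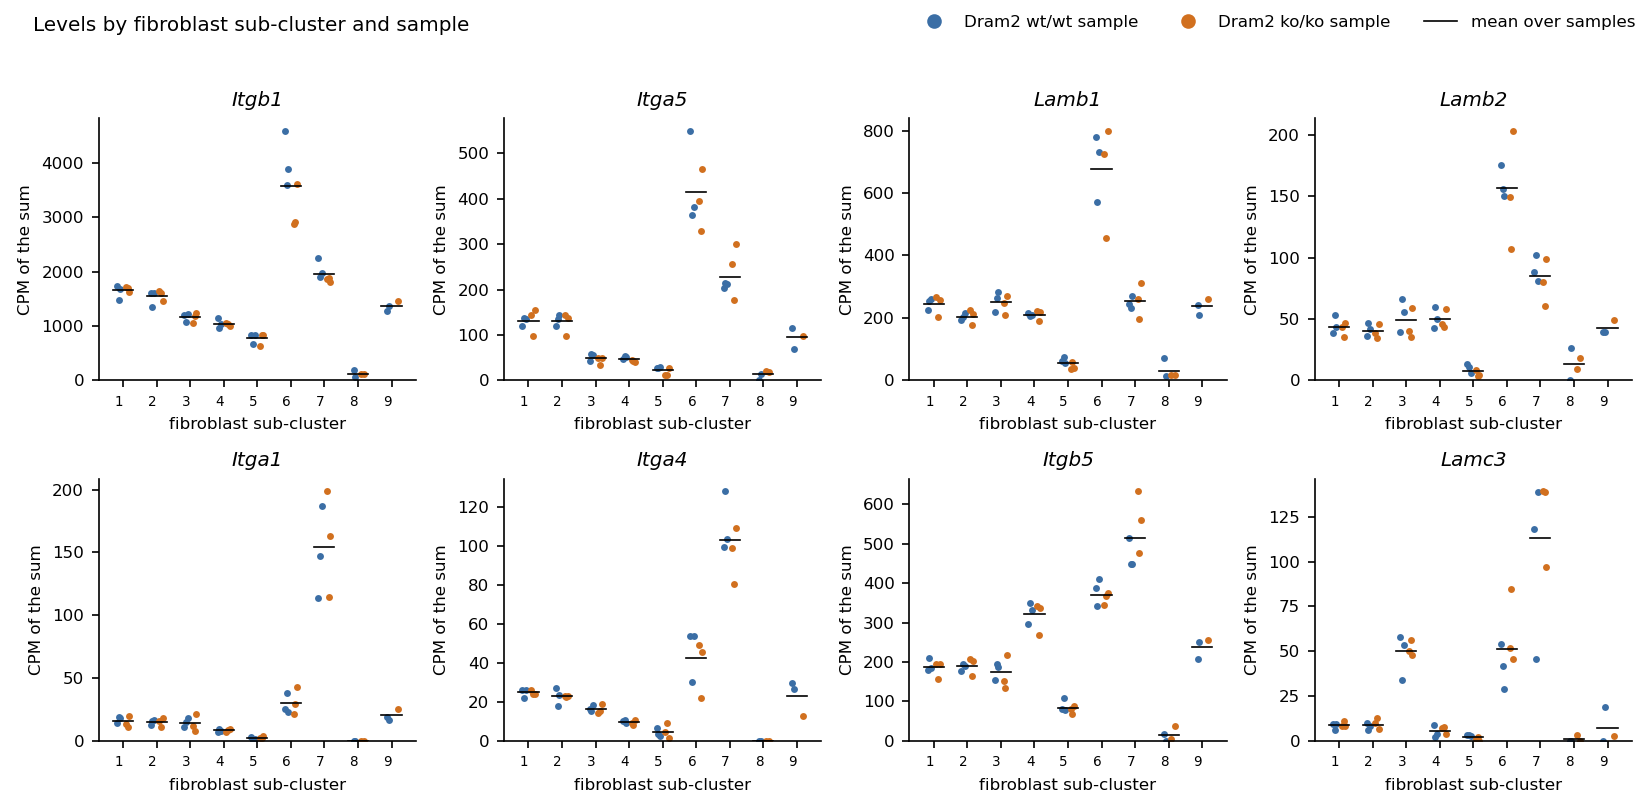
CPM of 8 genes in each sample (points coloured by genotype) of the 9 fibroblast sub-clusters (vertical axes from 0, lines at the mean). There are 6 samples per sub-cluster, but 4 for sub-cluster 8 and 3 for sub-cluster 9. Itgb1, Itga5, Lamb1 and Lamb2 are highest in sub-cluster 6 and Itga1, Itga4 and Itgb5 in sub-cluster 7 in every sample, whereas Lamc3 overlaps between sub-clusters 6 and 7.

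The genotypes were compared to ask whether loss of Dram2 went with a change of these genes in any cell type. In sums over whole samples, fewer cells of a type and less RNA per cell cannot be told apart, and sums within cell types follow below. Over the whole samples, none of 34 members tested passed an adjusted p of 0.05 in limma on voom weights, and 0% of 22580 genes did. Itgb1 was 1594, 1350 and 1553 CPM in wt/wt and 1500, 1548 and 1482 CPM in ko/ko, with a log2 fold change (ko/ko over wt/wt, as throughout) of 0.03 (SE 0.10). Lamb1 was 213, 224 and 241 CPM against 242, 194 and 227 CPM, with a log2 fold change of -0.02 (SE 0.09). The samples of the genotypes overlapped in both genes.

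At an unadjusted p under 0.05, 1 of the 34 members was lower in ko/ko and 7.01% of all genes passed. This was Itgal, at 0.166, 0.240 and 0.228 CPM in wt/wt and 0.0930, 0.0894 and 0.136 CPM in ko/ko (log2 fold change -0.95, SE 0.31, adjusted p = 0.407). These levels rest on 108 UMIs in all, of which 77.8% came from Myeloid cells. The Myeloid cells were 0.235%, 0.695% and 0.347% of wt/wt and 0.140%, 0.166% and 0.359% of ko/ko cells. Their part in the Itgal difference was not tested. The count of members called was 0 with edgeR and DESeq2 as well, with 1 and 0 members at an unadjusted p under 0.05.

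Within cell types, 153 tests of members gave 0 calls. The share of all genes called was 0% in RPE, Endothelial and Fibroblast-like, 0.0118% in the cells labelled Pericyte, 0.0296% in Myeloid, 0.00503% in Fibroblast, 0.624% in Fibroblast proliferating and 0.222% in Fibroblast 2. At an unadjusted p under 0.05, 7 member tests (4.58%) passed, 6 lower and 1 higher in ko/ko, against 6.12% of all 94315 gene tests, a share near the background. Of all gene tests at that level, 77.7% were lower in ko/ko. With edgeR 5 and with DESeq2 3 passed, and neither called a member. The median log2 fold change was -0.083 over the member tests and -0.005 over all gene tests. Batch 2 holds ko/ko sample 3 alone, so no value can be had within it. Without that sample 0 members were called, and 5, 17 and 19 member tests had an unadjusted p under 0.05 in whole samples, cell types and sub-clusters. These are 14.7%, 10.7% and 12.8% of the member tests, against 10.7%, 8.64% and 8.99% of all gene tests, so the member shares then lay above those of all genes. Without that sample 117, 434 and 551 genes were called. In whole samples the member share also lay above that of all genes without wt/wt sample 1 (11.8% against 8.17%). It lay below when any other single sample was left out, as without ko/ko sample 1 (5.88% against 8.67%). The order of the shares thus turned with the sample left out.

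In Endothelial, Itgb5 was 58.8, 110 and 59.7 CPM in wt/wt and 36.0, 23.6 and 49.6 CPM in ko/ko, with no overlap (log2 fold change -0.95, SE 0.34, adjusted p = 0.853), and without the 5% of cells with the most UMIs its log2 fold change was -0.46. Itga5 was 123, 123 and 112 CPM in wt/wt and 341, 129 and 174 CPM in ko/ko, with no overlap (0.74, SE 0.28, adjusted p = 0.920), and without ko/ko sample 1 its log2 fold change was 0.35. Itga2 was 37.7, 33.1 and 32.8 CPM in wt/wt and 48.0, 49.3 and 42.8 CPM in ko/ko (0.44, SE 0.25, adjusted p = 0.961). None of these 3 genes passed the test across all genes. The cells of this type numbered 288 over the 6 samples. The fibroblast list summed to 667 to 1933 CPM in them, and the part of fibroblast RNA in the Itgb5 values was not tested.

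In RPE, Lama4 was 4.97, 5.15 and 4.78 CPM in wt/wt and 0.702, 0.464 and 2.48 CPM in ko/ko, with no overlap (log2 fold change -1.70, SE 0.46, adjusted p = 0.540). With 1 sample left out the log2 fold change ran from -2.63, without ko/ko sample 3, to -1.29. The gene lay under the 5 CPM asked of a named gene and was picked after its values were seen. The levels in ko/ko samples 1 and 2 rest on very few UMIs, in RPE sums of 2849628 and 2153285 UMIs. The fibroblast list summed to 344 to 1166 CPM in RPE, and the part of fibroblast RNA in the Lama4 values was not tested. Itga1 in RPE had a log2 fold change of -0.41 (SE 0.22) and an adjusted p of 1, and the change was -0.25 without wt/wt sample 2.

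In Myeloid, with 2 samples of each genotype, Lama4 was 33.8 and 41.9 CPM in wt/wt and 17.01 and 10.02 CPM in ko/ko (-1.56, SE 0.60, adjusted p = 0.745). In ko/ko sample 2, 3 counts are 17 CPM. The fibroblast list summed to 1676 to 4494 CPM in Myeloid, and the part of fibroblast RNA in the Lama4 values was not tested. Itgal (-0.87, SE 0.42, adjusted p = 0.840) and Itga6 (0.86, SE 0.44, adjusted p = 0.844) did not overlap between genotypes there either, in opposite directions. The share of all genes that do not overlap between these samples was not counted. Without ko/ko sample 3 the Itgal value was -0.16, and that of Lama4 was -0.93. In Fibroblast proliferating, Lama2 was 17.1, 15.8 and 16.5 CPM in wt/wt and 18.7, 18.3 and 17.9 CPM in ko/ko, which is 0.15 on the log2 scale (SE 0.09, adjusted p = 0.956).

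Within the 8 sub-clusters that could be fitted, 147 member tests again gave 0 calls. The share of all genes called was 0.32% in sub-cluster 1, 0.55% in 2, 0.00634% in 3, 0.722% in 4, 0% in 5, 6 and 8 and 0.402% in 7. At an unadjusted p under 0.05, 6 member tests (4.08%) passed, 5 lower and 1 higher in ko/ko, against 6.53% of all 86808 gene tests, of which 76% were lower in ko/ko. With edgeR 5 and with DESeq2 3 passed, with 0 calls in each.

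The lowest adjusted p of any member was that of Itgb3 in sub-cluster 7. Itgb3, the β chain of the vitronectin receptor, was 32.9, 49.1 and 38.5 CPM in wt/wt and 101, 48.2 and 90.2 CPM in ko/ko, which overlapped (log2 fold change 1.01, SE 0.31, adjusted p = 0.259). Without ko/ko sample 2 the adjusted p was 0.00789 with a log2 fold change of 1.42, so this call rests on which samples are kept. In sub-cluster 5, Lamb1 was 63.0, 75.4 and 55.1 CPM in wt/wt and 35.1, 58.6 and 39.8 CPM in ko/ko (-0.67, SE 0.21, adjusted p = 0.363). Itga5 was 27.7, 27.3 and 28.8 CPM there in wt/wt and 11.7, 10.99 and 26.9 CPM in ko/ko, with no overlap (-0.96, SE 0.33, adjusted p = 0.421), and its log2 fold change was -0.57 without ko/ko sample 1. The Itga5 margin was narrow, 26.95 against 27.27 CPM. Sub-cluster 5 was of low depth (median 5437 to 6474 UMIs per cell by sample). It was 10.65% of the cells of ko/ko sample 1 and 1.40% to 4.03% of the others. The part of this in the Lamb1 and Itga5 values was not tested. In sub-cluster 4, Itga5 was 46.0, 52.9 and 50.9 CPM in wt/wt and 45.7, 41.9 and 40.4 CPM in ko/ko (-0.24, SE 0.11, adjusted p = 0.740).

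The other member tests at an unadjusted p under 0.05 were those of Itga8 in RPE (log2 fold change -1.22), Itga6 in Fibroblast 2 (-0.82) and in sub-cluster 3 (-0.67), Lama2 in Fibroblast-like (-1.25) and Itgb1 in sub-cluster 6 (-0.37). Their adjusted p-values ran from 0.649 to 0.999. Lama2 in Fibroblast-like rests on ko/ko sample 1 (2.38 CPM, against 9.99 to 14.8 CPM in the other samples), and without it the log2 fold change was -0.08. The remaining members named by the rule, whose genotypes did not overlap but whose p was larger, were Lama2 in sub-cluster 2 (0.18, SE 0.09), Itga8 in sub-cluster 4 (-0.31, SE 0.22) and Itgb1 in sub-cluster 7 (-0.12, SE 0.13). The Itga8 value was -0.11 without ko/ko sample 2, and that of Itgb1 was -0.04 without wt/wt sample 1. For Lama2 the wt/wt samples of sub-cluster 2 were 16.8, 15.6 and 16.3 CPM and the ko/ko samples 18.7, 18.5 and 17.6 CPM, the direction also seen in Fibroblast proliferating, with which these cells are shared.

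**Figure D4:**
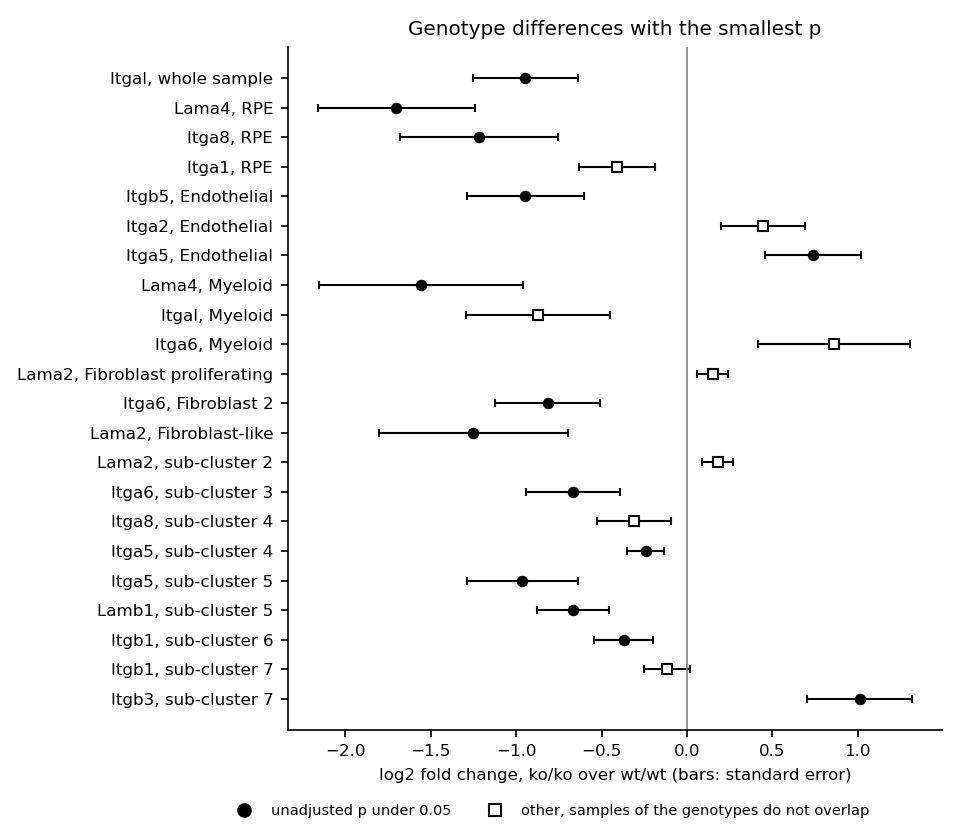
Log2 fold change of ko/ko over wt/wt (points, with SE bars from limma) for 22 pairs of a member and a cell type, a sub-cluster or the whole sample. Filled points had an unadjusted p under 0.05, and open points are other members whose genotypes did not overlap. The share of all genes without overlap was not counted. The values run from -1.70 for Lama4 in RPE to 1.01 for Itgb3 in sub-cluster 7, and none passed after adjustment over all genes.

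The other genes of integrin adhesion were counted in the same way. Of 26 genes that link integrins to actin and signalling (talins, kindlins, parvins, the kinase gene Ptk2 and others), all were tested in whole samples and none was called there, in 178 tests in cell types or in 160 tests in sub-clusters. Their lowest adjusted p was 0.226. Of 21 genes of other basement membrane proteins and integrin ligands, 19 were tested and none was called, with a lowest adjusted p of 0.217. At an unadjusted p under 0.05, 2 tests with a higher and 4 with a lower level in ko/ko were counted among 126 in cell types for the second list, and 1 and 2 among 178 for the first. In sub-clusters these were 3 and 6 of 114 for the second and 0 and 5 of 160 for the first, and in whole samples 1 and 1 of 19 and 0 and 0 of 26. The shares of all gene tests at that level were those given above, 6.12% in cell types, 6.53% in sub-clusters and 7.01% in whole samples. The 5 other laminin receptors had no test at that level. Of the 3 integrin chains outside the symbols, 1 was tested and was not called. It was lower in ko/ko at an unadjusted p under 0.05 in whole samples (log2 fold change -0.40), in 1 of 3 tests in cell types and in 1 of 4 in sub-clusters.

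Of 6 collagen IV chains, 3 stood apart in a cell type. The share over all genes that reached 5 CPM in some type was 15.3%. Among the other basement membrane and ligand genes listed, Agrn, Col18a1, Fn1, Spp1 and Icam1 stood apart in a type, and the rest did not. Col4a1 (2170 ± 175 CPM) and Col4a2 (1190 ± 172 CPM) stood apart in Endothelial, and Col4a5 and Col4a6 did not stand apart. Col4a4 was 36.5 ± 16.8 CPM in RPE and stood apart there, and Col4a3, its partner chain, was 25.3 ± 11.2 CPM in RPE with a lowest sample of 5.67 CPM. In RPE of ko/ko sample 3, 1 of the 2 libraries that stood apart, both were lowest (9.17 and 5.67 CPM). Col18a1, a basement membrane collagen, was 1304 ± 232 CPM in the cells labelled Pericyte, 218 ± 77.3 CPM in Endothelial and 32.3 ± 22.2 CPM in RPE.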

How the data were processed

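Cells of 6 samples, labelled by the submitters as 3 Dram2 wt/wt and 3 Dram2 ko/ko, had been counted with Cell Ranger 3.1.0 on GRCm38 (exons only, per the submitters' processing notes). The authors deposited UMI counts per gene and cell with their cell types and sub-clusters, which were used as given. Per the labels, ko/ko sample 3 is batch 2. All columns of per-sample values were used. Cell names were not barcodes, so barcodes shared between samples were not counted. Doublets were not called here.

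Counts were summed by sample and cell type or sub-cluster (at least 10 cells), and genotypes were compared with voom in limma 3.58.1 after filterByExpr and TMM scaling in edgeR 4.0.16 (R 4.3.3), with Benjamini-Hochberg adjustment over all genes of a fit and a threshold of 0.05, in 17 fits. The pipeline was tested on simulated data. Levels are CPM, and shares of cells were computed after thinning to 4000 UMIs, pooled over the samples. Alternatives were edgeR's quasi-likelihood test, DESeq2 1.42.0, other scalings, no filter on low counts, batch as a covariate, a replicate block, a cell filter (469 cells left out), leaving out the 5% of cells with the most UMIs in place of a doublet caller (1295 cells), and each sample left out in turn.

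The members and gene lists were chosen with earlier results of these data known. Sample values were given for members that stood apart with a mean of 20 CPM or more and for their partner chains, and, per genotype comparison, for up to 3 members of 5 CPM or more with the smallest p among those whose genotypes did not overlap. How many of all genes have genotypes that do not overlap was not counted. Other members with an unadjusted p under 0.05 were added after their values were seen. Positions are from GENCODE M21 (GRCm38) and promoters from RefSeq. Some sequences and the values of 1 member are not reported here.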

Additional observations from a re-analysis of the deposited data

Results flagged for a closer look

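Among members with a mean of 5 CPM or more in a genotype, Itga5 and Itgb1 separated the genotypes in opposite directions in different cells. Every ko/ko sample lay above all wt/wt samples in some cells and below all of them in others. For Itga5 the log2 fold change of ko/ko over wt/wt was 0.74 in Endothelial, -0.24 in fibroblast sub-cluster 4 and -0.96 in sub-cluster 5. For Itgb1 it was 0.34 in Myeloid, with 2 samples of each genotype, and -0.12 in sub-cluster 7. Itga6 did so as well, at 0.86 in Myeloid and -0.82 in Fibroblast 2, where it lay under 5 CPM. Several margins were narrow. The nearest wt/wt and ko/ko samples of Itga5 were 45.96 and 45.69 CPM in sub-cluster 4 and 27.27 and 26.95 CPM in sub-cluster 5. Those of Itgb1 in sub-cluster 7 were 1911 and 1885 CPM, and its log2 fold change there had an SE of 0.13. The differences between these cells were not tested, and no single value passed after adjustment. The share of all genes that separate the genotypes in opposite directions was not counted.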

How the results depend on the processing

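The count of members called between genotypes was 0 under every alternative in whole samples and in cell types. In sub-clusters it was 0 to 1 with a sample left out, the 1 being Itgb3 without ko/ko sample 2, and 0 otherwise. The 13 named log2 fold changes kept their sign and stayed uncalled in 187 alternative values. They had been picked because their genotypes did not overlap, which favours a kept sign, so the kept sign is no separate support. With each sample left out in turn, 8 to 10 members stood apart in cell types and 13 to 16 in sub-clusters. With each cell weighted the same the sub-cluster count was 6 in place of 13, and Itgam was 238 CPM and Itgb2 202 CPM in Myeloid. The cause was not tested.

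The replicate number did not pair the samples (correlations of same-numbered samples 0.099, -0.43 and 0.028). With a replicate block 0 members were called, and 0, 34 and 66 genes were called in whole samples, cell types and sub-clusters. In the same order, 3, 8 and 6 member tests had an unadjusted p under 0.05. These are 8.82%, 5.23% and 4.11% of the member tests, against 5.86%, 5.14% and 5.59% of all gene tests. The block could not be fitted in 1 sub-cluster.

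Calls over all genes were 0, 150 and 291 in whole samples, cell types and sub-clusters. They were 0, 84 and 178 with edgeR, 378, 887 and 1041 with DESeq2, 118, 323 and 475 with batch as a covariate, 0, 504 and 744 without the filter, 0, 93 and 209 with library size alone, and 0 to 242, 19 to 754 and 28 to 958 with a sample left out. Member tests at an unadjusted p under 0.05 were 5, 17 and 19 with the batch covariate (14.7%, 11.1% and 12.9%, against 10.7%, 8.82% and 8.91% of all gene tests) and 0 to 5, 6 to 17 and 3 to 19 with a sample left out, the highest being those without ko/ko sample 3. The cell filter could not be fitted in 1 sub-cluster. Leaving out a Myeloid sample leaves a genotype with 1 sample, which is assumed to vary like the others. Few cells limit Myeloid, Endothelial and the cells labelled Pericyte.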
